A study of Mus musculus with 6 samples.

Results

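The mitochondrially encoded transcripts of differentiating C2C12 muscle cells were described gene by gene and library by library. The members are all genes that the deposited count table places on chromosome MT, which gave 37 of 55804 genes: 13 mRNAs, 2 ribosomal RNAs and 22 transfer RNAs. All 37 were counted as members whatever their level. After a filter on low counts, 23 could be tested, namely 11 mRNAs, both rRNAs and 10 tRNAs.

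The study asked what loss of PRR33 does to gene expression while myoblasts differentiate. C2C12 is an established mouse myoblast line that fuses into muscle fibres when serum is lowered, and all 6 libraries came from it after 3 days in differentiation medium with 2% horse serum. The 3 Ctrl-gRNA libraries, with a control guide, have the genotype WT in the labels. The 3 Prr33-gRNA libraries, with a CRISPR/Cas9 guide against Prr33, have the genotype PRR33 knocked down. The sources describe 1 knockdown line and name no separately grown cultures, so p-values here speak of the spread among these libraries, which may be only technical. An effect of the guide and a difference between the derived lines cannot be told apart.

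The mitochondrial genome is a small circle that is transcribed on both strands into long precursors. In these precursors tRNAs stand between most of the mRNAs and rRNAs, and cutting them out frees the other RNAs, after which each product has its own rate of decay. The 2 rRNAs build the mitochondrial ribosome, the tRNAs serve it, and the mRNAs encode core subunits of the respiratory chain and of ATP synthase, on which muscle fibres draw heavily.

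The layout of the members bears on how their reads can be assigned. In the order of the circle, 35 of the 36 pairs of neighbouring members lie at most 5 bases apart and 9 pairs overlap. By annotation 28 members are on the plus strand and 9 on the minus strand, the latter being mt-Nd6 and 8 tRNAs. Whether reads were counted by strand is not stated in the sources used. Reads of a minus-strand member and reads of the opposite-strand precursor across the same bases can therefore not be told apart. The tRNA genes are 59 to 75 bases long, and a longer read would also cover a neighbour. Read length is not stated in the sources used, nor how reads across 2 genes were counted. Counts on tRNA genes may thus include precursor reads or miss reads, and need not give the level of mature tRNA.

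The sequences below are from the GENCODE M21 transcripts, build GRCm38 (mm10), and are shown where the values of the members turn on them. The 5 tested tRNAs of the minus strand are given from 5′ to 3′ with the anticodon in capitals. mt-Tn, mt-Tc and mt-Ty lie side by side and were lower in Prr33-gRNA, mt-Te was higher, and mt-Tp had the most counts of any tRNA.
mt-Tn, MT:5089-5159: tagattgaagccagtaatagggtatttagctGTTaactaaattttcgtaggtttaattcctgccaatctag
mt-Tc, MT:5192-5257: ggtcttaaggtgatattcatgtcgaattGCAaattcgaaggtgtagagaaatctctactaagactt
mt-Ty, MT:5260-5326: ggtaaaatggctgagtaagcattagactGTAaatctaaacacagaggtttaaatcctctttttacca
mt-Te, MT:14071-14139: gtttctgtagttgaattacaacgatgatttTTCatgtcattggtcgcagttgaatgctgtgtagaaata
mt-Tp, MT:15356-15422: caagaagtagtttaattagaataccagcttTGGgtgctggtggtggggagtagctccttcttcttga

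mt-Tl1, the tRNA for leucine that sits between the large-subunit rRNA and the mRNA of mt-Nd1, lies between the rRNAs, which fell, and an mRNA that rose. The termination factor MTERF1 is known to bind inside this gene. The letters GGCAGAGCC, the core of that site, were searched on both strands and are in capitals. They were found in 1 of the 37 members, mt-Tl1, and in 344 of 32851 RefSeq promoter windows of 300 bases (1.05%). The match describes the sequence only.
mt-Tl1, MT:2676-2750, plus strand: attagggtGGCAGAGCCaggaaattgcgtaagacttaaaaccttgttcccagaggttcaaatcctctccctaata

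Several members have copies of their sequence in the nuclear genome. On chromosome 1, between 24611535 and 24616197 of mm10 and on the minus strand, 7 annotated genes repeat all or part of 7 of the mRNAs, and 5 of the 7 have no base that differs from their mitochondrial partner. The other 2 are shown by a stretch of 90 bases with the differing bases in capitals. Gm28438 differs from mt-Nd3 at 1 of 345 bases, and Gm29216 differs from mt-Co1 at 6 of 492, all of them within the stretch printed.
mt-Nd3, MT:9459-9548: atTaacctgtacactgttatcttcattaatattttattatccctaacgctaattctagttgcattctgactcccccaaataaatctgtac
Gm28438, chr1:24613030-24613119: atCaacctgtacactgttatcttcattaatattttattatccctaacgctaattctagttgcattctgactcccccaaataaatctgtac
mt-Co1, MT:6381-6470: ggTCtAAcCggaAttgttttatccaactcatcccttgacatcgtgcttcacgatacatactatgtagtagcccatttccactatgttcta
Gm29216, chr1:24616108-24616197: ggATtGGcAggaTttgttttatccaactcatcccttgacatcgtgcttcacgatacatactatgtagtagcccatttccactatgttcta

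The libraries held between 17006381 and 19471762 counts. Prr33 itself had 1137, 990 and 913 counts with the control guide and 793, 829 and 848 with the Prr33 guide, a log2 fold change of -0.42 ± 0.06 (SE). Here and below, log2 fold changes are Prr33-gRNA over Ctrl-gRNA, and adjusted p-values come from edgeR's quasi-likelihood test with Benjamini-Hochberg adjustment over the 14651 genes tested. A gene is called at an adjusted p below 0.05, which 25.5% of tested genes met as higher and 26.6% as lower. That is 3740 higher and 3899 lower, beside 5002 and 3096 when library size alone set the scale. All 8 skeletal muscle markers were present, at 416 to 233611 counts, with their summed level at 26743 to 27241 CPM with the control guide and 15054 to 15949 with the Prr33 guide. Of them 7 were lower and Ckm was higher. Markers of leukocytes, endothelium, epithelium and fat cells had at most 30 counts in any library, while all 5 fibroblast and mesenchymal markers were lower, with a summed level of 665 to 713 CPM with the control guide and 25.8 to 28.4 with the Prr33 guide. The part of these differences in the mitochondrial results was not tested, and in bulk RNA fewer cells of a type and less RNA per cell cannot be told apart.

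Mitochondrial mRNA rose and mitochondrial rRNA fell in the Prr33-gRNA libraries. All 37 members together took 2.37%, 2.45% and 2.53% of counts with the control guide and 3.24%, 2.86% and 3.37% with the Prr33 guide. The mRNAs made up nearly all of it, at 2.22% ± 0.0731 (SD, n = 3) and 3.04% ± 0.256 (SD, n = 3). The rRNAs took 0.218% ± 0.0134 and 0.0969% ± 0.00724 (SD, n = 3 each), so the ratio of rRNA to mRNA counts went from 0.0985 ± 0.00431 to 0.0319 ± 7.04e-04, which is 3.09-fold lower. The tRNAs took 0.0159% ± 0.00178 and 0.0210% ± 0.00237 (SD, n = 3 each). That rise rested on mt-Tp, which was not called by itself. With mt-Tp left out, a choice made after seeing the values, the tRNAs lay apart in the opposite direction, at 0.00551%, 0.00523% and 0.00572% of counts in the Ctrl-gRNA libraries against 0.00509%, 0.00481% and 0.00499% in the Prr33-gRNA libraries. For the total, the 3 classes and the rRNA to mRNA ratio, the 3 libraries of one group lay wholly above those of the other. The exact two-sided permutation test gave p = 0.1 for each, which is the smallest p that 3 against 3 libraries can give, and Benjamini-Hochberg adjustment over the 8 measures computed left it at 0.1. The 95% Wilson interval of the total share reached at most 0.00820 percentage points to either side, so counting error was far below the spread between libraries.

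**Figure D1:**
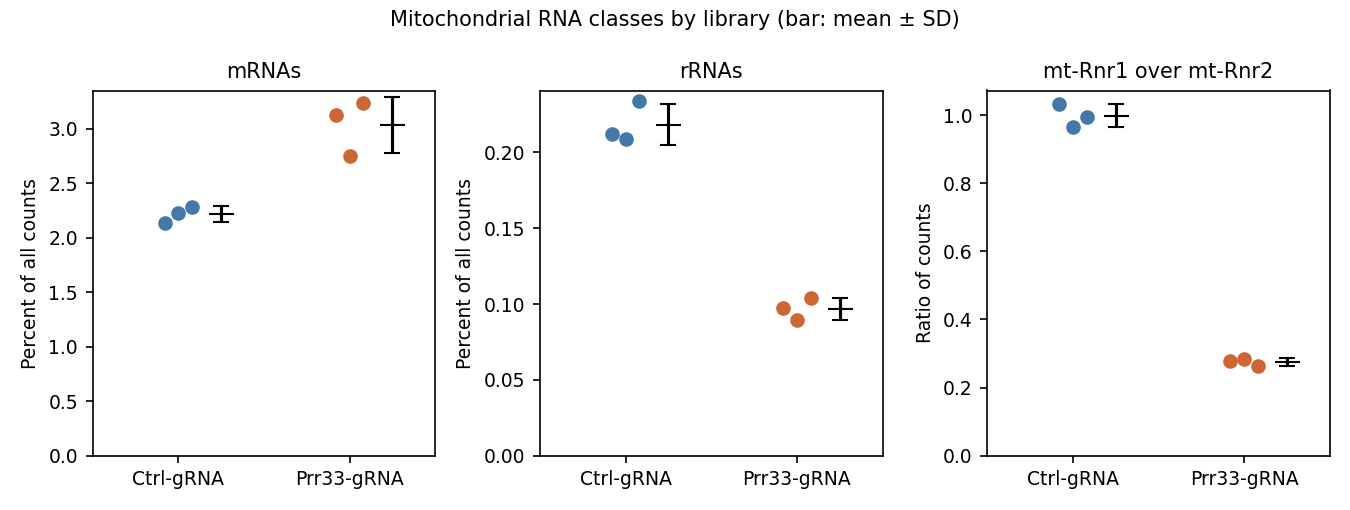
Counts on the mitochondrial mRNAs and rRNAs as a percent of all counts, and the ratio of mt-Rnr1 to mt-Rnr2 counts, in each of the 3 Ctrl-gRNA (blue) and 3 Prr33-gRNA (orange) libraries, with mean ± SD in black. The mRNA share lies higher in Prr33-gRNA (3.04% against 2.22%), while the rRNA share (0.0969% against 0.218%) and the ratio (0.275 against 0.998) lie lower, with no overlap between groups.

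Of the 13 mRNAs, 11 were tested and 7 were called higher, beside 25.5% of all tested genes. These were mt-Nd1, mt-Nd2, mt-Nd4, mt-Nd5 and mt-Nd6 of complex I, mt-Cytb of complex III and mt-Co1 of complex IV. None fell in edgeR, none was lower at an unadjusted p below 0.05, and DESeq2 and limma called 0 lower as well. The other 4 tested mRNAs were not called, and 2 were too low to test. The median log2 fold change of the 11 tested mRNAs was 0.53, beside -0.0023 for all tested genes. Groups did not overlap for 6 of them, all with Prr33-gRNA higher, against 28.6% of all tested genes that lay apart in that direction.

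Complex I takes electrons from NADH and has 7 subunits encoded in the mitochondrial genome. mt-Nd5 (MT:11742-13565), a proton-pumping subunit, stood at 2724, 2735 and 2732 CPM in the Ctrl-gRNA libraries and at 4438, 3513 and 4560 in the Prr33-gRNA libraries (CPM scales counts to a library of fixed size, here with TMM factors). The Ctrl-gRNA libraries were nearly equal and all below the Prr33-gRNA libraries, of which replicate 2 was the lowest, and the log2 fold change was 0.61 ± 0.11 (SE, adjusted p = 0.00874, edgeR). mt-Nd4 (MT:10167-11544), also a proton-pumping subunit, had 1247, 1295 and 1290 CPM with the control guide and 2068, 1805 and 2088 with the Prr33 guide. It rose by 1.56-fold, a log2 fold change of 0.64 ± 0.05 (SE, adjusted p = 8.58e-13, edgeR), again with the groups apart.

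mt-Nd1 (MT:2751-3707), which helps form the quinone-binding site, had 1918, 1986 and 2063 CPM with the control guide and 2699, 2461 and 2753 with the Prr33 guide. mt-Nd2 (MT:3914-4951), another membrane subunit, had 1250.2, 1276 and 1274 CPM against 1915, 1579 and 1992. The groups were apart for both, and the log2 fold changes were 0.41 ± 0.04 for mt-Nd1 (SE, adjusted p = 7.31e-10, edgeR) and 0.53 ± 0.08 for mt-Nd2 (SE, adjusted p = 0.00148, edgeR). mt-Nd6 (MT:13552-14070) is the only mRNA on the minus strand, and its last bases overlap those of mt-Nd5 by 14. Its level was 822, 825 and 760.1 CPM with the control guide and 1294, 1013 and 1328 with the Prr33 guide. The groups were apart and the log2 fold change was 0.59 ± 0.12 (SE, adjusted p = 0.0157, edgeR). This call was lost without Ctrl-gRNA replicate 1 (adjusted p = 0.0504) and without Ctrl-gRNA replicate 3 (adjusted p = 0.0547), with the log2 fold change at 0.61 and 0.56.

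mt-Cytb (MT:14145-15288), the only complex III subunit of this genome, had 1785, 1887 and 1974 CPM with the control guide and 3106, 2737 and 3147 with the Prr33 guide. The groups were far apart, and mt-Cytb had the largest log2 fold change among the called mRNAs, 0.67 ± 0.05 (SE, adjusted p = 1.78e-11, edgeR). mt-Co1 (MT:5328-6872), the catalytic subunit of cytochrome c oxidase, held the most counts of any member, at 12241, 12845 and 13360 CPM with the control guide and 14801, 13275 and 15466 with the Prr33 guide. Here the groups overlapped, since Prr33-gRNA replicate 2 lay below Ctrl-gRNA replicate 3, and the log2 fold change was 0.18 ± 0.05 (SE, adjusted p = 0.00250, edgeR). Its share of all mitochondrial mRNA counts went from 56.1% ± 0.648 to 49.3% ± 0.775 (SD, n = 3 each), with the groups apart. That measure was chosen after the values were seen, and it rests on counts that are uncertain for mRNAs with nuclear copies, as described below. Its exact permutation p was 0.1, the smallest possible here.

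The order of the libraries was the same across the tested mRNAs in Prr33-gRNA and less so in Ctrl-gRNA. In Prr33-gRNA, replicate 2 was the lowest and replicate 3 the highest for all 11 tested mRNAs. In Ctrl-gRNA, replicate 1 was the lowest for 6 of the 7 called mRNAs and for 7 of the 11 tested. The members are therefore not 11 independent readings of the difference.

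mt-Nd6 can be set against the mRNAs of the other strand without any scaling between libraries. The ratio of its counts to those of the other 12 mRNAs was 0.0387, 0.0373 and 0.0334 with the control guide and 0.0444, 0.0398 and 0.0439 with the Prr33 guide. The groups were apart, with an exact two-sided permutation p of 0.1, the smallest possible. With mt-Co1 left out of the denominator, however, the mean ratios were 0.0869 and 0.0878 and the exact permutation p was 0.7. The difference in the ratio to the other 12 mRNAs thus rested on mt-Co1, which had the smallest log2 fold change of the 7 called mRNAs. Both ratios compare annotated genes, since counting by strand is not stated in the sources used.

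**Figure D2:**
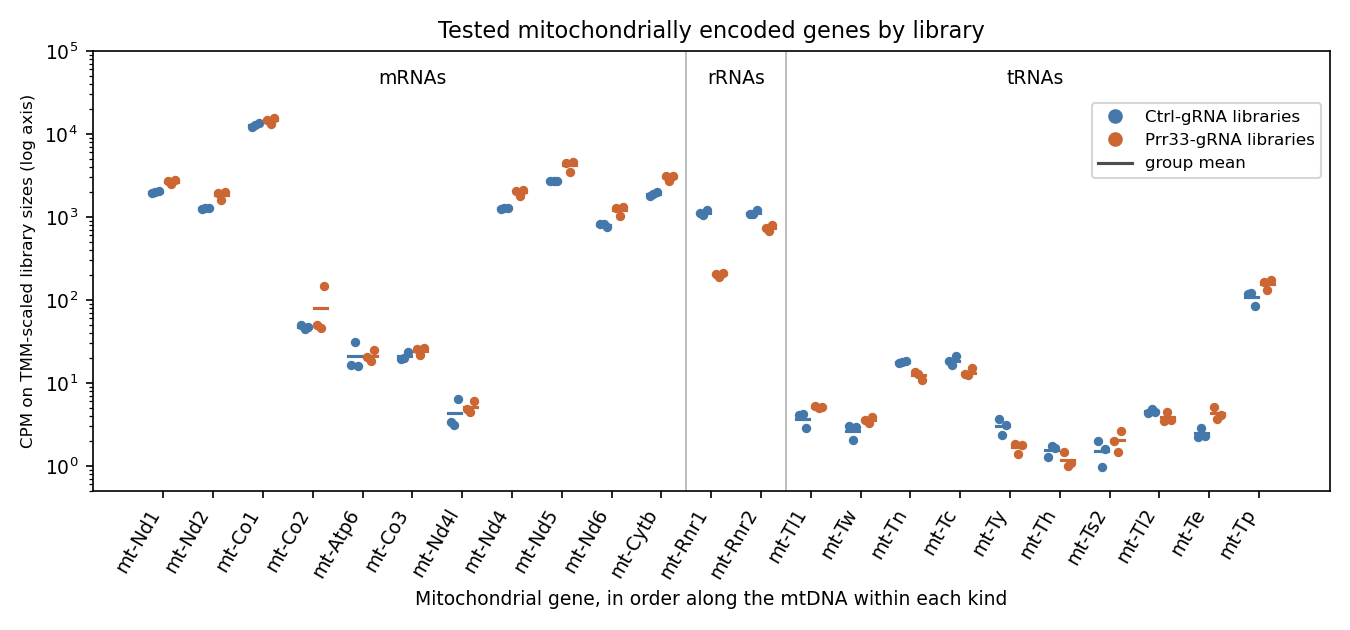
CPM on TMM-scaled library sizes (log axis) of the 23 tested mitochondrial genes in each library, Ctrl-gRNA in blue and Prr33-gRNA in orange, with a bar at each group mean. mt-Co1 is the highest at 12241 to 15466 CPM, mt-Co2, mt-Atp6, mt-Co3 and mt-Nd4l at 3.09 to 146 CPM lie far below the other mRNAs, and mt-Rnr1 shows the widest gap between groups.

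Both rRNAs fell, and they fell by unequal amounts. mt-Rnr1 (MT:70-1024), the rRNA of the small ribosomal subunit, had 20614, 17460 and 20203 counts with the control guide and 3807, 3443 and 4206 with the Prr33 guide. On the scaled levels this was 1124 ± 72.6 against 202 ± 10.6 CPM (SD, n = 3 each), 5.55-fold lower, with every Prr33-gRNA library far below every Ctrl-gRNA library. The log2 fold change was -2.47 ± 0.05 (SE, adjusted p = 3.28e-28, edgeR), and it stayed between -2.51 and -2.42 when any 1 library was left out. Of the 14651 tested genes, 340 (2.32%) had a lower log2 fold change.

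mt-Rnr2 (MT:1094-2675), the rRNA of the large subunit, had 19946, 18082 and 20312 counts with the control guide and 13637, 12138 and 16033 with the Prr33 guide. Its level went from 1127 ± 70.9 to 737 ± 65.2 CPM (SD, n = 3 each), 1.53-fold lower, with the groups apart. The log2 fold change was -0.61 ± 0.06 (SE, adjusted p = 7.56e-07, edgeR). A lower value was found for 2159 tested genes (14.7%), so a change of this size was common in these data while that of mt-Rnr1 was not. Groups lay apart with Prr33-gRNA lower for 29.3% of all tested genes.

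The ratio of mt-Rnr1 to mt-Rnr2 counts, a measure also chosen after the values were seen, was 1.03, 0.966 and 0.995 with the control guide and 0.279, 0.284 and 0.262 with the Prr33 guide. It was 3.63-fold lower in Prr33-gRNA and the groups did not overlap (exact permutation p = 0.1, the smallest possible). Per length, the ratio of FPKM values was 1.65 ± 0.0564 with the control guide and 0.456 ± 0.0186 with the Prr33 guide (SD, n = 3 each). In these libraries mt-Rnr1 thus had the higher FPKM of the pair with the control guide and the lower with the Prr33 guide. The molecule is given as total RNA, and whether rRNA was removed or poly(A) RNA selected before library making is not stated in the sources used. The ratios therefore need not give the relative levels of the 2 rRNAs in the cells.

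Nuclear rRNA and RNAs that lack a poly(A) tail were set beside the rRNAs after these values were seen. The nuclear rRNA gene CT010467.1 on chromosome 17 had 4566, 2352 and 2584 counts with the control guide and 1932, 1989 and 2268 with the Prr33 guide, and was not called (log2 fold change -0.73 ± 0.25, SE, adjusted p = 0.0779, edgeR). Its neighbour Gm26917, annotated as a long noncoding RNA and not as rRNA, was called lower, with a log2 fold change of -0.53 ± 0.05 (SE, adjusted p = 7.61e-12, edgeR). Of 15 tested replication-dependent core histone genes 11 were called lower, beside 26.6% of all tested genes, with a median log2 fold change of -0.84. Of the tested small nuclear and nucleolar RNA genes 1 of 5 and 1 of 22 were called higher, beside 25.5% of all tested genes, and 0 lower. The part of any of this in the fall of mt-Rnr1 and mt-Rnr2 was not tested.

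**Figure D3:**
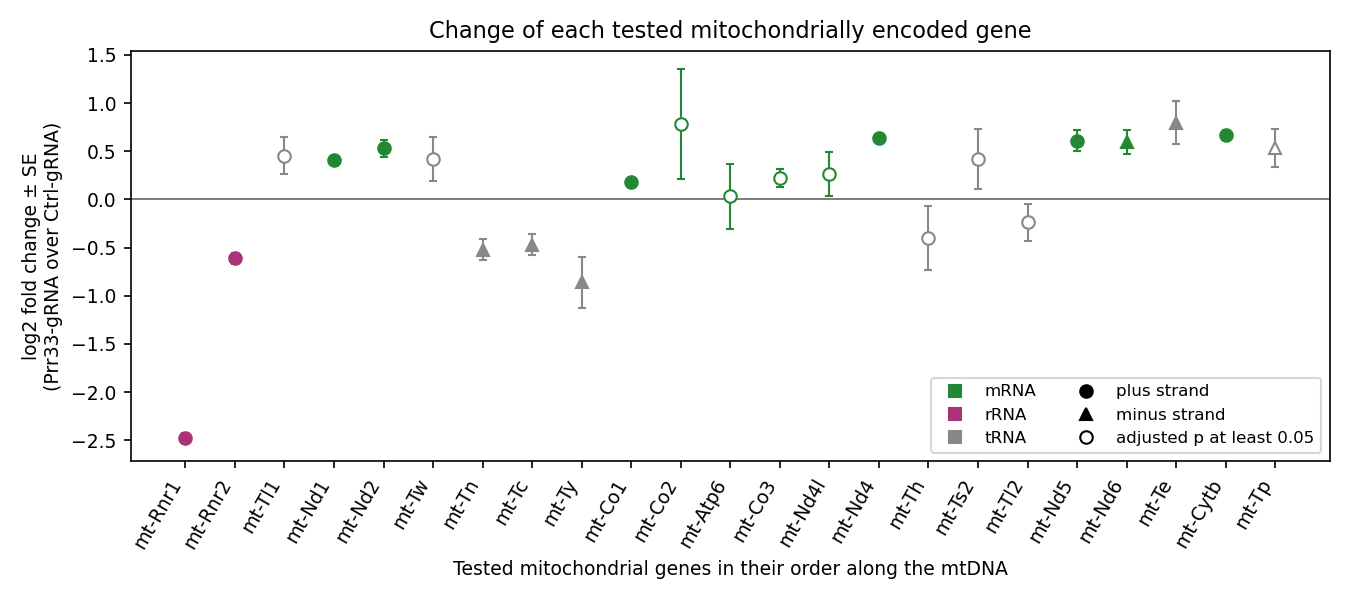
Log2 fold change ± SE of the 23 tested mitochondrial genes in their order along the genome, with rRNAs in purple, mRNAs in green and tRNAs in grey, circles for the plus and triangles for the minus strand, and open symbols at an adjusted p of at least 0.05. The 2 rRNAs and the cluster mt-Tn, mt-Tc and mt-Ty lie below 0, and all 11 mRNAs lie above 0 with 4 of them not called.

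Among the tRNA genes, 1 rose, 3 fell and 6 were not called of the 10 tested, in reads that may come from mature tRNA or from precursors. With 25.5% of all tested genes called higher and 26.6% called lower, these numbers of calls are near the background. The 3 that fell are neighbours on the minus strand within a stretch of 5 tRNA genes between mt-Nd2 and mt-Co1. mt-Tn, for asparagine, had 319, 298 and 312 counts with the control guide and 252, 234 and 219 with the Prr33 guide. mt-Tc, for cysteine, had 337, 272 and 351 against 234, 224 and 300 counts. On the scaled levels the groups were apart for both, with log2 fold changes of -0.52 ± 0.11 for mt-Tn (SE, adjusted p = 1.33e-04, edgeR) and -0.47 ± 0.11 for mt-Tc (SE, adjusted p = 5.77e-04, edgeR). mt-Ty, for tyrosine, was lower in level, at 68, 39 and 52 counts against 34, 25 and 36. Its log2 fold change was -0.86 ± 0.26 (SE, adjusted p = 0.00647, edgeR), and the call was lost without Ctrl-gRNA replicate 1 (adjusted p = 0.0624).

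mt-Te, for glutamate, lies on the minus strand right beside mt-Nd6 and was the only tRNA called higher. It had 41, 48 and 39 counts with the control guide and 95, 66 and 82 with the Prr33 guide, with the groups apart and a log2 fold change of 0.80 ± 0.22 (SE, adjusted p = 0.00322, edgeR). mt-Tp, for proline, had 2161, 2019 and 1416 counts with the control guide and 2985, 2368 and 3503 with the Prr33 guide. The groups were apart on the scaled levels, yet the difference was not called (log2 fold change 0.53 ± 0.20, SE, adjusted p = 0.0922, edgeR), and DESeq2 gave an adjusted p of 0.0195. mt-Tl1, between mt-Rnr2 and mt-Nd1, had 76, 69 and 48 counts against 96, 90 and 102. It lay just outside the threshold with the groups apart (log2 fold change 0.45 ± 0.19, SE, adjusted p = 0.0501, edgeR), and without Ctrl-gRNA replicate 2 the adjusted p was 0.0481. Without Ctrl-gRNA replicate 3 the log2 fold change was 0.30 (adjusted p = 0.240).

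The other 4 tested tRNAs had 16 to 81 counts in each library and adjusted p-values of 0.124 to 0.322 in edgeR, at log2 fold changes of 0.42 for mt-Tw and mt-Ts2, -0.24 for mt-Tl2 and -0.40 for mt-Th. The groups were apart for mt-Tw only. Of the 12 tRNAs too low to test, mt-Tf, mt-Ts1, mt-Td, mt-Tk and mt-Tg had 0 counts in all 6 libraries, where 3 counts correspond to 0.150 to 0.182 CPM per library. The other 7 of them had at most 9 counts in any library. Intervals and limits of this kind cover counting error only, and not how reads across gene borders were counted. A count of 0 therefore need not mean that a tRNA was absent.

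The mRNAs split into separate levels of abundance, which were set beside the sequence they share with the nucleus. Compared per length as mean FPKM over the 6 libraries, mt-Co1 had 8808, mt-Nd1 2408, mt-Cytb 2124, mt-Nd6 1933, mt-Nd5 1884, mt-Nd2 1485 and mt-Nd4 1180.1. mt-Co2 followed at 93.2, mt-Atp6 at 30.9, mt-Co3 at 29.0, mt-Nd4l at 15.9, mt-Nd3 at 1.71 and mt-Atp8 at 0.454. In every library the lowest of the former 7 stood above the highest of the latter 6. By function, mt-Co1, mt-Co2 and mt-Co3 are subunits of the same enzyme, and most of these mRNAs share a precursor.

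Windows of 100 bases that also occur in an annotated nuclear transcript made up 99.9% of mt-Co3, 99.5% of mt-Co2 and of mt-Atp6, 98.5% of mt-Nd4l and 97.6% of mt-Nd3. These 5 mRNAs had 1.36 to 213 FPKM across libraries. The share was 60.8% in mt-Nd4, 30.8% in mt-Co1, 3.19% in mt-Nd2 and 0% in mt-Nd1, mt-Nd5, mt-Nd6 and mt-Cytb. These 7 had 897 to 9961 FPKM. mt-Atp8 broke the pattern, with no shared window and the lowest level of all mRNAs. Its counts were 1, 2 and 3 with the control guide and 0, 1 and 3 with the Prr33 guide. On chromosome 1, its place between the copies of mt-Atp6 and mt-Co2 is a stretch of 233 bases, 24614652 to 24614884, with no annotated gene. Since annotated transcripts alone were searched, the shares are lower bounds. How reads that fit more than 1 place were counted is not stated in the sources used, and the part of shared sequence in the low levels was not tested. mt-Atp8 is printed with its 43 bases shared with mt-Atp6 in capitals (MT:7927-7969), because reads over these bases belong to 2 genes.
mt-Atp8, MT:7766-7969: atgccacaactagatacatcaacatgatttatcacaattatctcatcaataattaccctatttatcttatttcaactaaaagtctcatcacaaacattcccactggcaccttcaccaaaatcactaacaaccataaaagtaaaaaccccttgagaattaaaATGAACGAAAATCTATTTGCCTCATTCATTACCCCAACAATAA

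**Figure D4:**
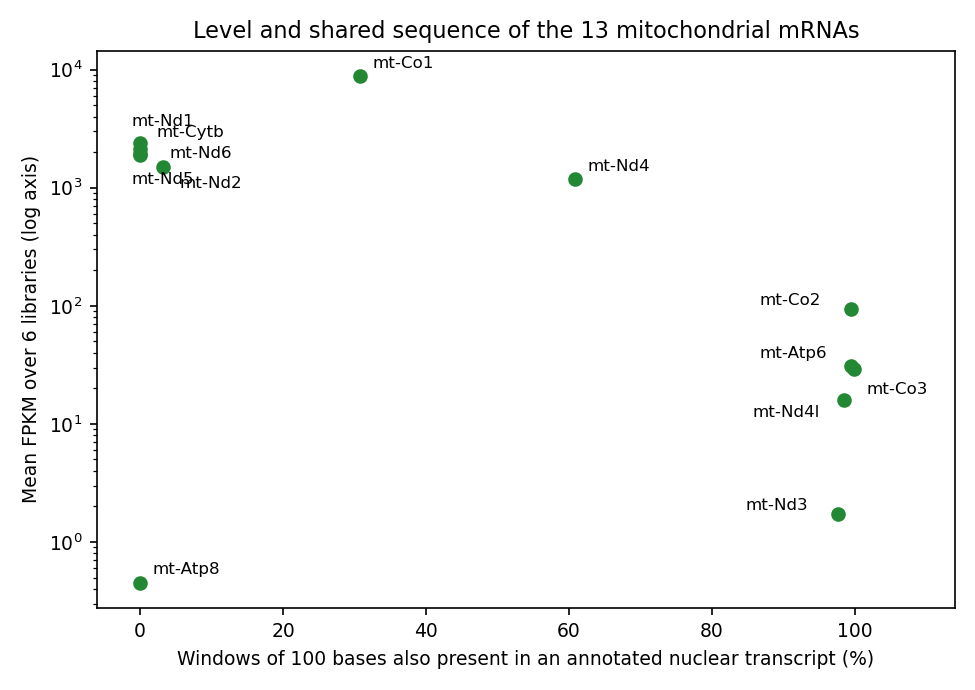
Mean FPKM over the 6 libraries (log axis) of the 13 mitochondrial mRNAs against the percent of their 100-base windows that also occur in an annotated nuclear transcript. The 5 mRNAs at 97.6% to 99.9% lie below the 7 at 0% to 60.8%, and mt-Atp8 lies at 0% with the lowest level.

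For the 5 mRNAs with near-complete nuclear copies the counts are uncertain, since how reads that fit both places were counted is not stated. Of these mRNAs, none of those tested was called. mt-Co2 (MT:7013-7696), which accepts electrons from cytochrome c, had 933, 740 and 784 counts with the control guide and 925, 830 and 2931 with the Prr33 guide. Prr33-gRNA replicate 3 alone stood high, and the log2 fold change of 0.78 ± 0.57 (SE, adjusted p = 0.332, edgeR) was 0.03 without it. mt-Atp6 (MT:7927-8607), part of the proton channel of ATP synthase, had 302, 508 and 266 counts against 383, 330 and 499. Here Ctrl-gRNA replicate 2 stood high, and the log2 fold change of 0.03 ± 0.34 (SE, adjusted p = 0.95, edgeR) was 0.41 without it (adjusted p = 0.00471). It turned to -0.12, -0.13 and -0.09 without Ctrl-gRNA replicate 1, Ctrl-gRNA replicate 3 or Prr33-gRNA replicate 3 (adjusted p = 0.811 to 0.883).

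mt-Co3 (MT:8607-9390), the remaining core subunit of cytochrome c oxidase, had 360, 333 and 400 counts with the control guide and 472, 391 and 531 with the Prr33 guide. The groups overlapped on the scaled levels, and the difference lay just outside the threshold (log2 fold change 0.22 ± 0.10, SE, adjusted p = 0.0519, edgeR). It passed when Ctrl-gRNA replicate 3 was left out (adjusted p = 0.0105) or Prr33-gRNA replicate 2 (adjusted p = 0.0106). With any other library left out the log2 fold change was 0.17 to 0.19 (adjusted p = 0.150 to 0.211). mt-Nd4l (MT:9877-10173), a small complex I subunit, had 63, 51 and 108 counts against 90, 80 and 123. Ctrl-gRNA replicate 3 stood high in its group, and the log2 fold change of 0.26 ± 0.23 (SE, adjusted p = 0.354, edgeR) was 0.67 without it (adjusted p = 0.0152) and 0.08 without Ctrl-gRNA replicate 2 (0.812). It was 0.12 without Ctrl-gRNA replicate 1 and likewise without Prr33-gRNA replicate 3. mt-Nd3 (MT:9459-9806), the other untested mRNA beside mt-Atp8, had 11, 9 and 8 counts with the control guide and 10, 16 and 11 with the Prr33 guide.

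The copies on chromosome 1 held 182 to 384 counts per library for Gm28439 (copy of mt-Nd4), 84 to 171 for Gm10222 (mt-Nd4l), 318 to 410 for Gm28438 (mt-Nd3), 275 to 425 for Gm28437 (mt-Co3), 281 to 501 for Gm10925 (mt-Atp6), 400 to 749 for Gm28661 (mt-Co2) and 261 to 435 for Gm29216 (mt-Co1). Together they took 0.0109% to 0.0158% of counts. Gm28438 had more counts in every library than mt-Nd3, its mitochondrial partner. Of the 7 copies 5 were called higher, beside 25.5% of all tested genes. Their log2 fold changes were 0.69 for Gm28439, 0.45 for Gm10222, 0.29 for Gm10925, 0.28 for Gm28437 and 0.27 for Gm28661. These 5 are the copies with no base that differs from their mitochondrial partner. By sequence, reads within them cannot be told apart from reads of that partner. The same holds for reads of Gm28438 and Gm29216 that miss the differing bases, which lie near the start of the stretches printed. The call of Gm28439 held without any 1 library. The other 4 calls did not: that of Gm10222 was lost without Ctrl-gRNA replicates 2 or 3 or Prr33-gRNA replicate 3 (adjusted p up to 0.162), of Gm10925 without Ctrl-gRNA replicates 1 or 2 or Prr33-gRNA replicate 3 (up to 0.203), of Gm28437 without Ctrl-gRNA replicate 1 or Prr33-gRNA replicates 1 or 3 (up to 0.135), and of Gm28661 without Ctrl-gRNA replicate 2 or Prr33-gRNA replicates 1 or 3 (up to 0.164).

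With each copy's counts added to its mitochondrial partner, an alternative chosen after seeing the data, mt-Co3 and mt-Nd4l were called higher (log2 fold changes 0.25 and 0.37, adjusted p = 0.0102 and 0.0246, edgeR). mt-Atp6 and mt-Co2 were still not called, at 0.16 and 0.61 (adjusted p = 0.574 and 0.301). mt-Nd3 with Gm28438 became testable and was not called, at -0.13 (adjusted p = 0.254). mt-Nd4 and mt-Co1 kept log2 fold changes of 0.64 and 0.18.

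Nuclear genes that express the mitochondrial genome were tabulated in 7 lists, of which 144 genes were tested. In all, 38 were called higher and 30 lower, beside 25.5% and 26.6% of all tested genes in these directions. The counts of each list in the main fit stand beside the same shares, and counts under other settings do not. With library size alone as the scale, 55 were higher and 20 lower, beside 5002 and 3096 of all 14651 genes tested in that setting. In the list for mtDNA transcription and replication 8 of 18 were higher and 0 lower, with a median log2 fold change of 0.20 beside -0.0023 for all tested genes, and 12 were higher with library size alone. The count higher was 6 with DESeq2, with chromosome 14 left out and without Ctrl-gRNA replicate 3. Over all genes tested in these settings, 3258 of 18987, 3520 of 14179 and 3652 of 15028 were higher. The count higher in the list was 1 with a log2 fold change of at least 0.5 in size also required. No share over all genes is given for that size threshold. No member of that list was lower at an unadjusted p below 0.05 in edgeR, and DESeq2 and limma called 0 lower. Tfb2m, which opens the promoters for the mitochondrial RNA polymerase, had 526, 463 and 499 counts with the control guide and 809, 672 and 899 with the Prr33 guide. It rose with the groups apart (log2 fold change 0.55 ± 0.08, SE, adjusted p = 2.57e-07, edgeR). The single-strand binding protein gene Ssbp1 rose by 0.35, Mterf4 by 0.38, Mterf3 by 0.24 and the polymerase gene Polrmt by 0.19 on the log2 scale. Of the bases in the exons of Mterf4, 35.2% also lie in another gene. Tfam, which packs the mitochondrial DNA and bends its promoters, stood at 0.16 (adjusted p = 0.0332, edgeR), and this call was lost without Ctrl-gRNA replicate 3 (adjusted p = 0.214), Prr33-gRNA replicate 1 (0.143) or Prr33-gRNA replicate 2 (0.0639). The Tfam call was also lost with DESeq2 (adjusted p = 0.0811), with both limma fits (0.0776 and 0.0764) and in edgeR with chromosome 14 left out (0.0519).

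In the list for RNA processing and modification 4 of 28 were higher, 6 lower and 18 not called, with a median of 0.00. The 6 lower became 3 when Ctrl-gRNA replicate 1 was left out, and likewise for Prr33-gRNA replicate 3 and with library size alone. Elac2, the nuclease that cuts tRNA 3′ ends out of the precursors, rose by 0.28, Trnt1, which adds the CCA end, by 0.46 and the tRNA methyltransferase gene Trmt5 by 0.52, while Trit1, which modifies tRNA anticodon loops, fell by 0.46 on the log2 scale. These 4 had the lowest adjusted p-values of the list.

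In the list for RNA stability and decay 6 of 13 were higher and 3 lower, with a median of 0.19. Pnpt1, which encodes polynucleotide phosphorylase, had 2103, 1823 and 2001 counts with the control guide and 1053, 889 and 1158 with the Prr33 guide. The groups were far apart, and the log2 fold change was -1.06 ± 0.06 (SE, adjusted p = 1.25e-16, edgeR). Lrpprc, which keeps mitochondrial mRNAs stable, rose by 0.26, Grsf1, an RNA granule protein gene, by 0.41, Rexo2 by 0.37 and Fastkd2 by 0.51. Slirp, the partner of Lrpprc, was called lower at -1.23, but 97.8% of its exonic bases lie in another gene and it had 7 to 42 counts per library, so its own reads are uncertain. Without Prr33-gRNA replicate 3 its log2 fold change was -0.80.

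The translation factor list had 4 of 13 higher and 2 lower, with a median of 0.01. The 2 lower genes, Oxa1l (log2 fold change -1.02), which inserts newly made proteins into the inner membrane, and the release factor gene Mtrf1 (-1.22), both lie on chromosome 14. There 397 of 472 tested genes (84.1%) were called lower, with a median of -0.88. The initiation factor gene Mtif2 rose by 0.43 and Guf1 by 0.27. Of 22 aminoacyl-tRNA synthetase and amidotransferase genes 5 were higher and 5 lower, with a median near 0, and 8 were higher with library size alone. Nars2, for asparagine, stood at -0.78, Qrsl1 at 0.51, and Kars and Gars, which also serve the cytosol, at -0.27 and -0.24.

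Of 12 tested regulators of mitochondrial biogenesis 4 were higher and 6 lower, with a median of -0.09. The 6 became 3 when either Ctrl-gRNA replicate 1 or 2 was left out, and 2 when Prr33-gRNA replicate 1 was or with library size alone. Gabpa rose by 0.44 and Yy1 by 0.29, while Esrrg, the estrogen-related receptor of oxidative tissues, stood at -1.56 and Tfeb, a regulator of lysosomal genes, at -0.51. The coactivator gene Ppargc1a was not called (log2 fold change 0.19, adjusted p = 0.0648, edgeR). Its relative Ppargc1b was called lower (-0.34, adjusted p = 0.0110, edgeR), a call lost without Ctrl-gRNA replicate 1 (adjusted p = 0.0639) or Prr33-gRNA replicate 1 (0.101). In the list for assembly of the complexes that hold these subunits, 7 of 38 were higher and 8 lower, with a median of -0.02. Ndufaf4, for complex I, stood at 0.63, Uqcc1, for complex III, at -0.61, Cox18, for complex IV, at -0.47 and Tmem70, for ATP synthase, at 0.49.

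**Figure D5:**
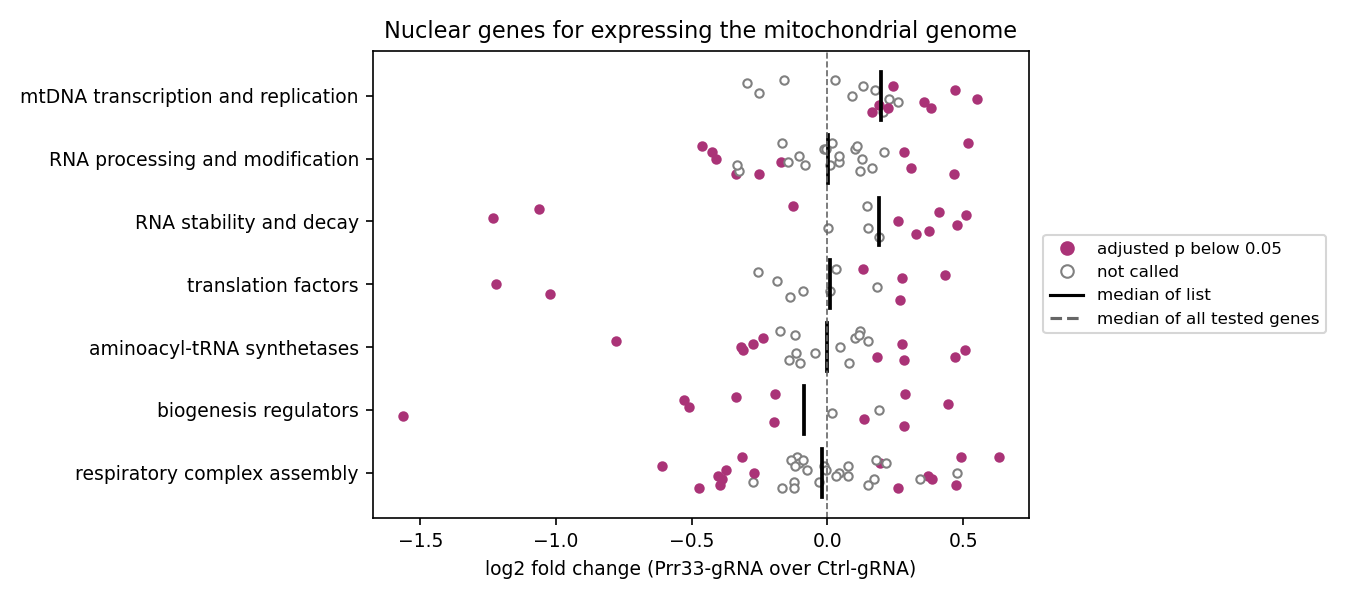
Log2 fold changes of the 144 tested nuclear genes in 7 lists, filled at an adjusted p below 0.05, with a black bar at each list's median and a dashed line at the median of all tested genes. The medians of the lists for transcription and replication (0.20) and for RNA stability and decay (0.19) lie to the right of the line, and the others lie within 0.09 of 0.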

How the data were processed

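RNA-seq counts of 6 C2C12 libraries, 3 in each of 2 groups taken from the sample titles, were analysed. The authors deposited raw counts of whole reads for each gene and, in a second table, FPKM values. FPKM turned out to be counts divided by gene length and by a constant per library, 0.973 to 1.04 of its total. Per the submitters' processing notes, CASAVA, HISAT2 2.0.5, featureCounts 1.5.0-p3 and mm10 were used. Their roles, the strand and multimapping settings, the read length and the annotation release are not given in the sources used here.

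The test was edgeR 4.0.16 (quasi-likelihood F test, R 4.3.3, robust fit, filterByExpr, TMM factors of 0.968 to 1.04, 14651 genes), with Benjamini-Hochberg adjustment at 0.05. Shares and ratios were tested over libraries by exact permutation in scipy 1.17.1. Tested on simulated counts of this comparison among 14420 genes, the fit found 39 of 50 genes changed 1.25-fold, 48 of 50 at 1.5-fold and all 50 at 2-fold, with 9 false calls. The simulation gave every gene the same dispersion and changed few genes, drawn from those with a mean above 50 counts. Its rates do not cover members with fewer counts or a wider spread. The coordinates of all 37 members equal those in GENCODE M21, whose transcripts were searched for windows of 31 and 100 bases shared with the members. A nuclear gene counted as a copy where at least 50% of its 31-base windows were found in members; Gm13341 (48.0%) and Gm13340 (45.2%) on chromosome 2 lay just under.

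The members and the 7 lists were chosen with earlier results of these data known. All mRNAs, rRNAs and tested tRNAs were named, and of each list the 4 genes with the lowest adjusted p and 7 set genes (Polrmt, Tfam, Tfb2m, Lrpprc, Slirp, Ppargc1a, Ppargc1b). Alternatives were other scalings, DESeq2 1.42.0, limma 3.58.1 on log2(FPKM + 1) and log2(FPKM + 0.1), other filters and thresholds, a replicate block, each library left out and, added later, copies summed into members.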

Additional observations from a re-analysis of the deposited data

How the results depend on the processing

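The direction and the call of both rRNAs were the same under every alternative that tested them, and no called value changed sign. Across 64 named genes and 1124 recomputed values, 34 calls were lost and 24 gained, and 3 values that were never called changed sign, all of mt-Atp6. The count of tRNAs called higher was 1, and it became 2 with RLE size factors, library size alone, DESeq2, the replicate block and summed nuclear copies (an alternative chosen after seeing the data), 3 with limma on log2(FPKM + 0.1) and 4 with limma on log2(FPKM + 1). With each library left out in turn it ranged from 1 to 2. Of the nuclear lists, 5 genes were higher and 9 lower with a log2 fold change of at least 0.5 in size also required, in place of 38 and 30, and 55 and 20 with library size alone. Over all genes, library size alone gave 5002 higher and 3096 lower in place of 3740 and 3899, and moved the median log2 fold change of all tested genes to 0.09. mt-Co3 was called with library size alone (adjusted p = 0.00624).

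Equal replicate numbers did not pair the libraries: correlations of deviations between groups were -0.0122, -0.0106 and 0.0231. The fit with the replicate block called 3811 genes higher and 3975 lower. It lost the call of mt-Nd6 (adjusted p = 0.0696) and gained those of mt-Tl1 (0.0417) and mt-Co3 (0.0341). The paired exact sign-flip test of the mitochondrial share, the rRNA to mRNA ratio and the mt-Nd6 ratio gave p = 0.25 each, the smallest possible.

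With any 1 library left out, the difference in mitochondrial share was 0.601 to 0.856 percentage points and that of the rRNA to mRNA ratio -0.0689 to -0.0646. The share of counts on tRNAs differed by 0.00511 percentage points, and by -5.25e-04 with mt-Tp left out (chosen after seeing the data). Of the 22 tRNAs, 12 had at most 9 counts per library and could not be tested.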
